A study of Mus musculus with 44 samples.

Results

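The 39 Hox cluster genes of the deposited table were followed over a time course of B cell differentiation. They were all rows whose symbol is Hoxa, Hoxb, Hoxc or Hoxd and a number, out of 23234 genes. There were 11 Hoxa, 10 Hoxb, 9 Hoxc and 9 Hoxd genes. The cells were iLS (induced leukocyte stem) cells, multipotent progenitors of blood cells grown from C57BL/6J mouse fetal liver, and their poly(A) RNA was sequenced. Per the labels, a fusion of Id3 with ERT2, which answers to 4-hydroxytamoxifen (4-OHT), induces these cells. Every group was first kept on TSt-4 feeder cells, with 20 ng/mL of IL-7, 10 ng/mL each of SCF and Flt-3L, and 40 nM of 4-OHT. To start differentiation, 4-OHT was left out and IL-7 was lowered to 5 ng/mL, again on TSt-4 cells. By their labels the groups differ only in the time since that change. The 44 libraries cover 0, 0.5, 1, 2, 4, 6, 8, 10, 12, 24, 48, 72, 96 and 144 h with 3 libraries each, and 120 and 168 h with 1 library each. The labels do not say whether replicates came from separate cultures, so p-values measure only the spread between these libraries. Whether feeder cells were removed before RNA was isolated is not given in the sources used here.

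Hox genes encode homeodomain transcription factors and lie in 4 clusters, on mouse chromosomes 6 (Hoxa), 11 (Hoxb), 15 (Hoxc) and 2 (Hoxd). In the embryo they are switched on in the order of their place in the cluster and set position along the body axis, and mesenchymal cells of the adult keep a code of them that depends on where the cells came from. In blood, Hoxa genes such as Hoxa9, Hoxa10, Hoxa7 and Hoxa5 are active in stem and progenitor cells and go down as cells mature, and Hoxb4 is known for expanding blood stem cells when it is overexpressed. Hox proteins bind DNA together with PBX and MEIS proteins, the KMT2A (MLL) complex keeps Hox genes active, and Polycomb complexes keep them silent. Id3 blocks E proteins, which bind the E-box.

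Promoter sequences are shown for 4 genes that stand for the patterns below: Hoxa9, which fell; Hoxa10, which was split by replicate number; Hoxb4, which was lower in replicate 1; and Hoxb8, which rose. Each is the 250 bases before the transcription start, 5′ to 3′ on the gene's strand, from RefSeq on GRCm38.p6, a later build than the mm9 of the data. Capitals mark the E-box letters CANNTG. The windows lie at chr6:52227371-52227620 (Hoxa9, minus strand), chr6:52240855-52241104 (Hoxa10, minus strand), chr11:96318017-96318266 (Hoxb4, plus strand) and chr11:96281655-96281904 (Hoxb8, plus strand).
Hoxa9: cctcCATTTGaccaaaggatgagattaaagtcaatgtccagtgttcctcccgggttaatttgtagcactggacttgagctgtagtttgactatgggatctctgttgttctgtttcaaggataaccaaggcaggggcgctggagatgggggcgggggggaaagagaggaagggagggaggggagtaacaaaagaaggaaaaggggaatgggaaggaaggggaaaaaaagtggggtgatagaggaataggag
Hoxa10: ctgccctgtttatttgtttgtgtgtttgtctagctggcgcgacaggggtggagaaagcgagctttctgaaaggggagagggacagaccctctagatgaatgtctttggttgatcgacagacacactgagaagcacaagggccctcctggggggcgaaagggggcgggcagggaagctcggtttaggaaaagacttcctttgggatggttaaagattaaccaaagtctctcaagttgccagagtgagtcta
Hoxb4: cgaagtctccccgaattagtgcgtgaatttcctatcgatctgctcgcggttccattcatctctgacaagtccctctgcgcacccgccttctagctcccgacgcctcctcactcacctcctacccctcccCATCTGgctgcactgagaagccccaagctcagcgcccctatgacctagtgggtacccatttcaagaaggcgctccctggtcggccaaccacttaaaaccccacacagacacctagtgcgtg
Hoxb8: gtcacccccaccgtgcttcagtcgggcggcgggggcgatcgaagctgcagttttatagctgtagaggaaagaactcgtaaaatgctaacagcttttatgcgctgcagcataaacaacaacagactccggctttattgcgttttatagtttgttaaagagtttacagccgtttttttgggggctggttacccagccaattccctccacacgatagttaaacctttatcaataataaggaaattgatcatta
The Hoxa9 and Hoxb4 windows hold 1 E-box match each, and those of Hoxa10 and Hoxb8 hold none. Hoxa10 has another entry, at chr6:52234940-52235189, which is not shown and holds no E-box match either. The table had 24 promoter entries for 22 of the 39 Hox genes. They include every Hoxd gene, Hoxa11, Hoxa13 and Hoxb1, none of which passed the filter on low values described below. Of the Hoxb and Hoxc genes that passed it, only Hoxb4, Hoxb8 and Hoxc4 have an entry. CANNTG, which reads the same on both strands, was in 17 of the 24 (70.8%), against 66.2% of 32851 promoters of the same length. TGATTNAT, the letters of a PBX-HOX site, was searched on both strands and was in 2 of the 24 (8.33%), against 2.82% of all promoters. The Hox windows had a median GC content of 58.6% and a median of 12.5 CpG, against 52.4% and 6 over all promoters. A match is only a match of letters.

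Levels are FPKM, fragments scaled to transcript length and to the mapped total of the library, a unit per length that can be compared between genes. Depth is unknown, since the file holds no counts. Relative depth, read from the lowest values, ranged 3.94-fold between libraries, from 0.563 to 2.22. A value of 0 is given as "listed at 0", because 25 of 4007 genes with a median of at least 20 FPKM were listed at 0 in some library. The cultures held blood and stromal RNA together: 18 of 18 genes of blood cells in general (Ptprc and Coro1a among them) and 23 of 25 stromal genes (Col1a1 and Fn1 among them) passed the filter. Among the stromal markers, Lum was listed at 0 in all 44 libraries and Dcn in all but 1. The summed FPKM of the 23 tested stromal genes was 652 to 2044 at 0 h, 7129 to 8687 at 6 h, 6625 to 7997 at 24 h and 1659 to 2815 at 144 h. The 18 blood-cell genes summed to 2136 to 2758, 754 to 860, 327 to 820 and 1554 to 1927 FPKM at those times. In such bulk RNA, fewer cells of a type and less RNA per cell cannot be told apart.

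Replicate 1 stood apart from replicates 2 and 3 throughout. Xist was at 0.76 to 4.43 FPKM in all 14 libraries of replicate 1 at the replicated time points, and at most 0.0534 and 0.0836 in replicates 2 and 3. Uchl1 was listed at 0 in all 14 libraries of replicate 1 and above 0 in every other library. The single libraries at 120 and 168 h, titled as replicate 1, did not share this pattern: Xist was listed at 0 and Uchl1 was at 21.8 and 19.1 FPKM. Their library codes lie in a run of consecutive codes whose other libraries are all of replicate 3, from 8 to 144 h. Xist and Uchl1 were chosen after their values were seen. Whether the replicates are different cell lines or clones is not given in the sources used here. The Hox counts at 6, 24 and 144 h are also given without it.

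Of the 39 Hox genes, 26 passed the filter on low values, which asked for 1 FPKM or more in 3 or more of the 42 libraries from replicated time points. They were 9 Hoxa, 8 Hoxb and 9 Hoxc genes. A mean of 1 FPKM at 1 or more replicated time points was the rule for naming a gene with values, and the same 26 met it. The other 13 were near or at 0. Hoxa13, Hoxb1, Hoxb13 and 8 of the 9 Hoxd genes, 11 in all, were listed at 0 in all 44 libraries. Hoxd13 reached 0.176 FPKM in 1 library, at 2 h. Hoxa11 was above 0 in 2 libraries, at 0.217 and 0.38 FPKM. The Hoxd cluster and the 5′-most genes Hoxa11, Hoxa13 and Hoxb13 were thus at or close to 0, while the 5′-most Hoxc gene, Hoxc13, was among the most abundant, with up to 42.7 FPKM.

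**Figure D1:**
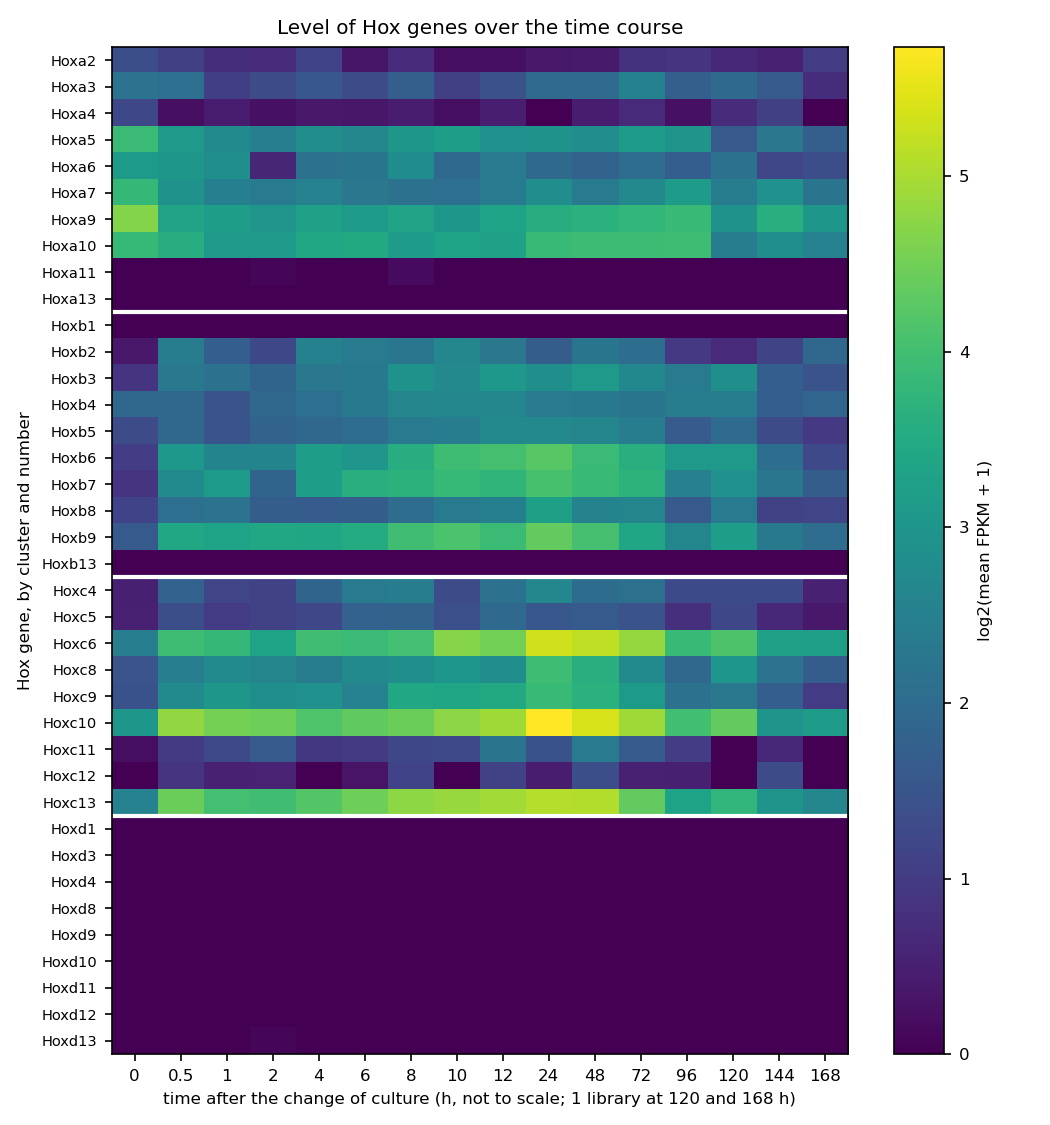
Level of the Hox genes reported here (rows, by cluster and number) at the 16 time points (columns, in h, not to scale), as log2 of the mean FPKM + 1; 120 and 168 h are single libraries. Hoxa5, Hoxa7 and Hoxa9 are brightest at 0 h, Hoxb6 to Hoxb9, Hoxc6, Hoxc8 to Hoxc10 and Hoxc13 at 24 h, and the Hoxd rows are dark throughout.

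The cluster that dominated changed with time. At 0 h the Hoxa genes held 68.1% ± 22.3 (SD, n = 3) of the summed Hox FPKM, and at 24 h 16.1% ± 6.18 (SD, n = 3). Hoxa9 led at 0 h with a mean of 24.6 FPKM, followed by Hoxa5 (14 FPKM), Hoxa10 (13.2 FPKM) and Hoxa7 (13.1 FPKM), whose ranges over libraries overlapped with that of Hoxa9. At 24 h the order was Hoxc10 (52.3 FPKM), Hoxc6 (39.3 FPKM), Hoxc13 (33.1 FPKM), Hoxb9 (19.4 FPKM), Hoxb6 (18.0 FPKM) and Hoxb7 (15.9 FPKM), with overlap between neighbours down to Hoxc13 and again from Hoxb9 to Hoxb7. The lowest library of Hoxc13, at 29.7 FPKM, lay above the highest of Hoxb9, at 22.5 FPKM. Of the 26 genes, 6 had their highest mean at 0 h, all of them Hoxa genes (Hoxa2, Hoxa4, Hoxa5, Hoxa6, Hoxa7 and Hoxa9), and 11 at 24 h, of which 5 were Hoxb and 6 Hoxc genes.

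Summed by cluster, Hoxa stood at 138, 56.9 and 44.4 FPKM in replicates 1, 2 and 3 at 0 h. The sums were 44.0, 32.5 and 25.5 FPKM at 6 h and 55.8, 33.6 and 42.7 FPKM at 24 h. All 6 h libraries lay below all 0 h libraries, and 1 of the 24 h libraries lay within the 0 h range. Hoxb summed to 5.10, 8.65 and 18.1 FPKM at 0 h, 44.5, 49.1 and 44.9 FPKM at 6 h and 66.8, 72.5 and 101 FPKM at 24 h. Hoxc summed to 11.7, 15.2 and 36.6 FPKM at 0 h, 68.9, 77.9 and 70.7 FPKM at 6 h and 119, 140 and 228 FPKM at 24 h. For both clusters the 3 times did not overlap. At 144 h the means were 33.0 ± 16.7 FPKM for Hoxa, 19.5 ± 4.38 for Hoxb and 32.3 ± 14.6 for Hoxc (SD, n = 3).

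**Figure D2:**
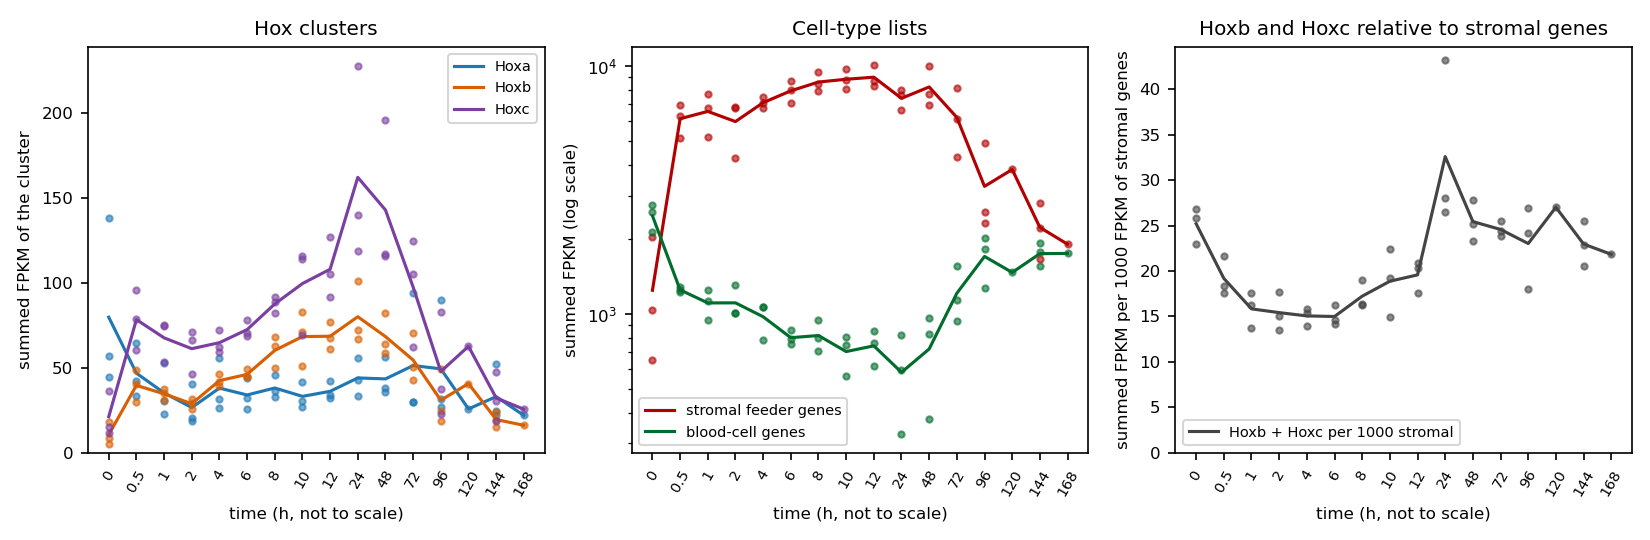
Summed FPKM of the Hoxa, Hoxb and Hoxc genes (left), of the 23 stromal and 18 blood-cell genes on a log scale (middle), and of Hoxb and Hoxc together per 1000 FPKM of stromal genes (right), against time in h (spacing not to scale), with 1 point per library and a line through the means. Hoxb, Hoxc and the stromal sum are low at 0 h and high between 0.5 and 72 h; the ratio on the right dips to a mean of 15 at 6 h and has its highest mean, 32.6, at 24 h.

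Tests were made with limma on log2(FPKM + 1), over all 13907 genes that passed the filter, with Benjamini-Hochberg adjustment, and an adjusted p under 0.05 made a call. The F test over the whole course called 15 of the 26 Hox genes, a share near the 56% of all genes. Among them were Hoxa7, Hoxb2, Hoxb3, Hoxb6, Hoxb7, Hoxb8, Hoxb9, Hoxc4, Hoxc5, Hoxc6, Hoxc8, Hoxc9, Hoxc10 and Hoxc13. Genes that the F test did not call include Hoxa2, Hoxa4, Hoxa5, Hoxa9, Hoxb5 and Hoxc11 (adjusted p = 0.0751, 0.062, 0.466, 0.114, 0.107 and 0.106). Their calls below rest on single comparisons. At 0.5 h, 10 Hox genes were higher, 5 Hoxb and 5 Hoxc (14.3% of all genes were), and 2 lower, both Hoxa (7.29%). By then 23 of 23 stromal genes were also higher (median log2 change 2.34) and 12 of 18 blood-cell genes lower (median -0.94). The stromal sum was 5137 to 6969 FPKM at 0.5 h, against 652 to 2044 at 0 h. At 1 h 11 Hox genes were higher (16.8%) and 3 lower (15.3%). At 2 h there were 9 (16.5%) against 5 (18.5%), then by 4 h 12 (18%) against 3 (17%). At 6 h 12 were higher (19% of all genes) and 4 lower (19.2%). At 8 h there were 13 (20.4%) and 2 (19.2%), at 10 h 11 (21.1%) and 5 (20.5%), and at 12 h, the time with the most Hox genes called higher, 15 (21.6%) and 3 (20.3%). At 24 h 14 were higher (20.8%) and 3 lower (22.5%). At 48 h there were 14 (22%) and 2 (16.4%), then 12 higher (17.2%) with 1 lower (8.23%) by 72 h, then only 4 (7.79%) against 1 (2.49%) by 96 h. At 144 h 2 were higher than at 0 h (5.64%) and 1 lower (3.24%). Without the 14 libraries of replicate 1, the 6 h counts were 9 higher, 2 lower, the 24 h counts 14 higher, 1 lower, and the 144 h counts 0 higher, 2 lower.

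By their medians, Hoxa genes on one side and Hoxb and Hoxc genes on the other moved in opposite directions. With all libraries, every Hox gene called higher at 6 or 24 h was a Hoxb or Hoxc gene. Every one called lower then was a Hoxa gene. Not all Hoxa genes went down: Hoxa10 changed by 0.42 at 6 h and 0.83 at 24 h on the log2 scale, not called. Without replicate 1, limma called Hoxa10 higher at 24 h (1.59, adjusted p = 0.00725). At 6 h 5 of 8 Hoxb and 7 of 9 Hoxc genes rose, none of these fell, and 4 of 9 Hoxa genes fell. The median log2 change at 6 h was -0.90 for Hoxa, 1.76 for Hoxb and 1.30 for Hoxc, against -0.06 over all genes tested. At 24 h it was -0.98, 2.04 and 2.42, against -0.06. At 144 h it was -0.84, 0.83 and 0.46, against 0.03. Within runs of consecutive library codes, the 6 h medians of replicates 1, 2 and 3 were -1.59, -0.54 and -0.67 for Hoxa, 2.02, 1.88 and 0.96 for Hoxb, and 1.70, 1.83 and 0.82 for Hoxc, so the direction was shared by the 3. At 24 h only replicates 1 and 2 shared a run with their 0 h library, with -1.41 and -1.03 for Hoxa, 2.24 and 1.94 for Hoxb, and 2.35 and 2.27 for Hoxc. No library from 48 h on shared a run with 0 h.

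These directions depend on what the values are set against. The stromal genes rose with Hoxb and Hoxc: 22 of 23 at 6 h and 23 of 23 at 24 h, with median log2 changes of 2.61 and 2.54. The blood-cell genes fell with Hoxa: 18 of 18 at 6 h and at 24 h, with medians of -1.59 and -2.24. When each library was scaled to its blood-cell genes, the median over all genes moved to 2.14 at 24 h. The medians of Hoxa, Hoxb and Hoxc were then 1.22, 4.23 and 4.62. This scaling shifts all genes of a library by the same amount, so it cannot change where the clusters stand relative to all genes. With the mean of the stromal genes as a covariate, the medians of Hoxa, Hoxb and Hoxc were 0.04, -0.01 and -1.26 at 6 h. At 24 h they were 0.36, 0.49 and 0.20. No Hox gene was called at 6 or 24 h, and 33 and 23 of all 13907 genes were called higher there. Over all genes, 15 and 9 were then called lower. The stromal sum of every 0 h library lay below that of every 6 and 24 h library. This fit therefore has little power to tell time from the covariate, and the part of the stromal genes was not tested. At an unadjusted limma p under 0.05, 1 Hox gene was higher and 4 lower at 6 h in that fit, and 3 higher and 1 lower at 24 h. All genes were not counted at this cut.

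**Figure D3:**
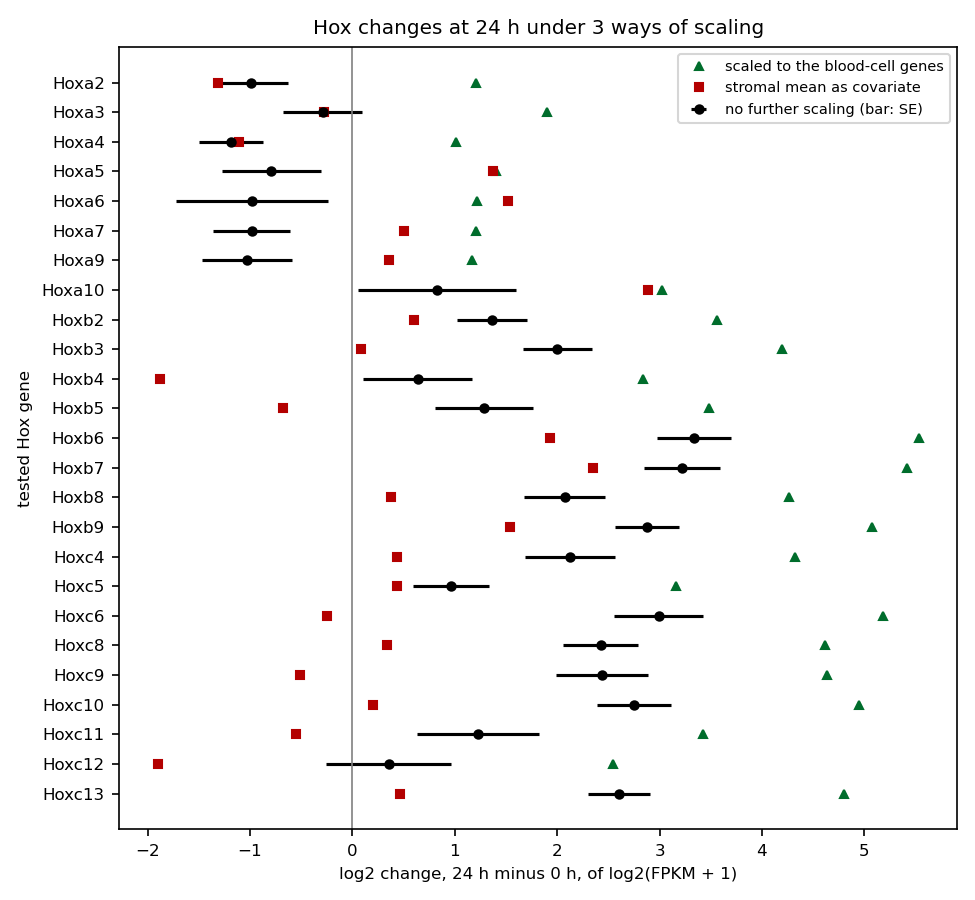
Log2 change at 24 h against 0 h of the tested Hox genes reported here (rows) with no further scaling (black, bar: SE), scaled to the blood-cell genes (green) and with the stromal mean as a covariate (red). The SE of the green and red points is not drawn. Scaling to blood-cell genes moves every gene to the right, so that Hoxa genes lie above 0, and the stromal covariate brings most Hoxb and Hoxc genes towards 0.

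The ratio of the Hoxb and Hoxc sums to the stromal sum was compared directly. At 0 h it was 25.8, 23.0 and 26.8 FPKM per 1000 stromal FPKM in replicates 1, 2 and 3, although the stromal sum itself differed between them (652, 1041 and 2044 FPKM). At 6 h the ratio was 14.1, 14.6 and 16.2, below every 0 h library. At 24 h it was 28.0, 26.5 and 43.2, above every 6 h library and overlapping with 0 h. The stromal sum was about the same at both times (7947 ± 782 FPKM at 6 h and 7414 ± 709 at 24 h, SD, n = 3). At 144 h the ratio was 23.0 ± 2.46 (SD, n = 3). Over all 44 libraries it lay between 13.5 and 43.2. An exact permutation test of 3 against 3 libraries cannot give a two-sided p below 0.1, so no p is given for these ratios.

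The step from 6 to 24 h was therefore tested gene by gene, a comparison added after seeing the data. By limma only Hoxb8 rose (0.964% of all genes did) and no Hox gene fell (1.11%). At an unadjusted limma p under 0.05, 8 Hox genes were higher and 0 lower. The share of all genes at that cut was not counted, so these 8 cannot be set against it. Hoxb8, whose overexpression holds blood progenitors in an immature state, went from 2.31, 2.18 and 2.21 FPKM to 5.56, 5.59 and 14.5 FPKM. All 24 h libraries were higher, with a log2 change of 1.44 ± 0.40 (SE, adjusted p = 0.0489). Hoxb6 (log2 change 1.30, adjusted p = 0.0527), Hoxc10 (1.28, adjusted p = 0.0556), Hoxc6 (1.40, adjusted p = 0.0866), Hoxc8 (1.13, adjusted p = 0.11) and Hoxc9 (1.29, adjusted p = 0.135) did not pass the threshold, although for each of them all 24 h libraries lay above all 6 h libraries. The median was 0.26 for Hoxa, 0.52 for Hoxb and 0.63 for Hoxc, against -0.02 over all genes and -0.04 over the 23 stromal genes.

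Among the Hoxa genes, Hoxa9 and Hoxa7 fell at 6 h. Hoxa9, a progenitor gene and a driver of leukemia with Meis1, was at 40.3, 16.3 and 17.1 FPKM in replicates 1, 2 and 3 at 0 h and at 9.74, 6.60 and 6.88 FPKM at 6 h. The 2 groups did not overlap, and replicate 1 was the highest in both. Its log2 change was -1.44 ± 0.44 (SE, adjusted p = 0.00922). Without 0 h replicate 1 the change was -1.04 and no longer called (adjusted p = 0.095), whereas without all libraries of replicate 1 it was -1.19 and called (adjusted p = 0.0178). At 24 h Hoxa9 stood at 13.9, 7.26 and 11.4 FPKM, all below the 0 h libraries, with an adjusted p of 0.057. With replicate number added to the limma fit, Hoxa9 was called lower at 24 h (adjusted p = 0.00137).

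Hoxa7, which is active in early blood progenitors, was at 16.4, 15.1 and 7.68 FPKM at 0 h and at 3.69, 3.47 and 4.44 FPKM at 6 h. All 6 h libraries were lower (log2 change -1.47 ± 0.38, SE, adjusted p = 0.00246), and the call held with any 1 library left out. At 24 h its change was -0.99 (adjusted p = 0.0355), with overlap between the groups. This call ended without 0 h replicate 1, 0 h replicate 2, 24 h replicate 2 or 24 h replicate 3. Reads of Hoxa7 and of the antisense gene Hoxaas3, whose exons overlap by 586 bases, cannot be told apart, since the library kit named in the labels does not mark strand. The same holds for Hoxa3 with Hoxaas2 and Hoxaas3.

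Hoxa4 and Hoxa2, low throughout, also fell. Hoxa4 was at 2.21, 1.11 and 0.742 FPKM at 0 h, was listed at 0 in all 3 libraries at 24 h, and was at 0.592, 1.59 and 1.24 FPKM at 144 h. It was the only Hox gene that rose from 24 to 144 h (log2 change 1.07 ± 0.31, SE, adjusted p = 0.00889; 17.4% of all genes rose), and without 144 h replicate 2 it was not called. Hoxa2 had a mean of 1.58 FPKM at 0 h, 0.269 at 6 h and 0.31 at 24 h. Its log2 change was -1.03 at 6 h (adjusted p = 0.021), and leaving out 0 h replicate 1, 0 h replicate 2 or 6 h replicate 1 ended the call.

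In the main fit Hoxa5 was called lower at 144 h and not at 6 or 24 h (adjusted p = 0.0892 and 0.195). Once replicate number was added to the limma fit, it was called lower at 6 and 24 h too (adjusted p = 0.00855 and 0.0416). Hoxa5 was at 26.2, 8.35 and 7.44 FPKM at 0 h and at 7.03, 2.51 and 1.96 FPKM at 144 h, with each 144 h library below all 0 h libraries. The log2 change at 144 h in the main fit was -1.56 ± 0.49 (SE, adjusted p = 0.0394). Hoxa5 was the only Hox gene called lower at 144 h (3.24% of all genes were). It was not called without 0 h replicate 1, 144 h replicate 2 or 144 h replicate 3. The F test over the whole course did not call Hoxa5 (adjusted p = 0.466). Hoxa6, at 11.8, 8.91 and 2.65 FPKM at 0 h, was at 3.96 FPKM in replicate 1 and listed at 0 in the others at 144 h, and was not called (adjusted p = 0.061). Hoxa3, with means of 3.54 FPKM at 0 h and 1.47 at 6 h, was not called either (adjusted p = 0.0684). With replicate number added to the limma fit, Hoxa3 was called lower at 6 h (adjusted p = 0.0439).

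Among the Hoxb genes, Hoxb6 to Hoxb9 had the largest rises at 24 h. Hoxb6 was at 0.871, 0 and 2.34 FPKM at 0 h and at 13.6, 23.2 and 17.3 FPKM at 24 h, with no overlap and a log2 change of 3.34 ± 0.36 (SE, adjusted p = 1.91e-08). Hoxb7 went from 0.457, 1.38 and 0.615 FPKM to 12.7, 14.1 and 20.8 FPKM (3.22 ± 0.37, SE, adjusted p = 5.14e-08). Hoxb9 went from 0.854, 1.22 and 4.13 FPKM to 18.2, 17.5 and 22.5 FPKM (2.88 ± 0.31, SE, adjusted p = 1.9e-08). Hoxb7 and Hoxb9 did not overlap between the times either. At 0 h, Hoxb6 and Hoxb9 were highest in replicate 3, which also had the highest stromal sum, and Hoxb7 in replicate 2. Hoxb8 had a log2 change of 2.07 at 24 h against 0 h (adjusted p = 7.86e-05), but was not called at 6 h (0.64, adjusted p = 0.217).

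By 144 h these genes were down again. Hoxb6 stood at 2.80, 2.50 and 4.41 FPKM and Hoxb7 at 1.10, 3.94 and 6.17 FPKM. Both were still above 0 h by the test (log2 changes 1.18 and 1.24, adjusted p = 0.0378 and 0.0321), the only Hox genes that were. Hoxb7 overlapped with 0 h, where its highest library was at 1.38 FPKM. Without 0 h replicate 1 neither was called. The Hoxb6 call also ended without 0 h replicate 2, 144 h replicate 1 or 144 h replicate 3. That of Hoxb7 also ended without 0 h replicate 3, 144 h replicate 2 or 144 h replicate 3. Hoxb2 and Hoxb3 also rose at 24 h, by 1.36 and 2.00 on the log2 scale, but Hoxb2 was highest at 10 h (5.26 FPKM) and Hoxb3 at 48 h (7.47 FPKM). Their exons overlap with the antisense gene Hoxb3os by 953 and 2250 bases, so their reads cannot be told apart from it. Hoxb5, which overlaps Hoxb5os by 100 bases, rose at 24 h by 1.28 (adjusted p = 0.0301) and was not called without replicate 1 (1.22, adjusted p = 0.143).

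Hoxb4, the blood stem cell gene of its cluster, was called in none of the 4 comparisons. It was at 0.412, 3.94 and 4.02 FPKM at 0 h, 4.09, 3.21 and 4.75 FPKM at 6 h and 3.38, 3.18 and 6.23 FPKM at 24 h. Only the 0 h library of replicate 1 stood low. The log2 change at 24 h was 0.64 ± 0.53 (SE, adjusted p = 0.355).

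Hoxc10, Hoxc6 and Hoxc13 had the highest mean FPKM of all Hox genes at 24 h. Hoxc10 was at 3.42, 5.16 and 13.2 FPKM at 0 h, 18.9, 21.7 and 17.3 FPKM at 6 h and 36.4, 36.3 and 84.2 FPKM at 24 h. The times did not overlap, and replicate 3 stood far above the others at 24 h. Its log2 change at 24 h was 2.76 ± 0.36 (SE, adjusted p = 3.07e-07). It shares 166 exonic bases with Hoxc5 on the same strand, so part of the reads of either could be counted for the other.

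Hoxc6 went from 3.16, 2.12 and 8.26 FPKM at 0 h to 28.2, 38.8 and 50.9 FPKM at 24 h (log2 change 2.99 ± 0.43, SE, adjusted p = 1.34e-06). Hoxc13, known for its part in hair and nail, went from 2.84, 4.62 and 7.05 FPKM to 29.7, 32.2 and 37.6 FPKM (2.61 ± 0.30, SE, adjusted p = 4.98e-08). Neither overlapped between the times, and in both replicate 3 was the highest and, at 0 h, had the highest stromal sum as well. Hoxc8, Hoxc9 and Hoxc4 rose at 24 h by 2.42, 2.44 and 2.13 on the log2 scale, and Hoxc5 by 0.97 (adjusted p = 0.0344). Leaving out 0 h replicate 1, 0 h replicate 3, 24 h replicate 2 or 24 h replicate 3 ended the Hoxc5 call. Hoxc11 and Hoxc12, which were listed at 0 in 12 and 30 of the 44 libraries, were not called at 6, 24 or 144 h, and their highest means were 4.22 and 1.60 FPKM, both at 48 h. Hoxc11 was called higher at 12 and 48 h (log2 changes 1.78 and 2.12, adjusted p = 0.0157 and 0.00476).

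From 24 to 144 h, 12 Hox genes fell (15.6% of all genes did), 6 Hoxb and 6 Hoxc. Without replicate 1, 14 Hox genes were lower (1658 of all 13907 genes were, against 2164 with all libraries). Hoxa5, Hoxa6, Hoxa10 and Hoxc5 were then called (limma, adjusted p = 0.0146, 0.0493, 0.00427 and 0.00336) and Hoxb3 and Hoxb5 were not (adjusted p = 0.114 and 0.204). Hoxc10 fell by 2.71 on the log2 scale (SE 0.36), to 6.88, 4.10 and 9.61 FPKM, and Hoxb6 fell by 2.16 (SE 0.36). Hoxc13 fell by 2.15, Hoxc6 by 2.14, Hoxc9 by 2.08, Hoxb9 by 2.07 and Hoxb8 by 2.02. The median over Hoxb was -1.62 and over Hoxc -1.66, against 0.08 over all genes, while the 23 stromal genes had a median of -1.67 and 21 of them fell. Hoxa had a median of -0.34, and Hoxa9 was not called (0.04 ± 0.44, SE), while the 18 blood-cell genes were all higher (median 1.57). The Hoxa sum per 1000 blood-cell FPKM stood at 68.1, 56.3 and 131 at 24 h. By 144 h it stood at 27.1, 12.4 and 16.0, all below the 24 h libraries. At 0 h it was 53.7, 20.6 and 20.8, which overlaps with 144 h. The part of the stromal and blood-cell genes in these changes was not tested.

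At 120 h the Hoxa, Hoxb and Hoxc sums were 25.8, 40.7 and 62.7 FPKM, and at 168 h they were 22.0, 16.1 and 25.6 FPKM. They have no error. The 168 h sums of Hoxb and Hoxc lay within the range of the 144 h libraries, and those of 120 h above it.

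Replicate 1 differed from the others in its Hoxa genes. Hoxa10, which like Hoxa9 acts in blood stem and progenitor cells, was at 34.2 FPKM in replicate 1 at 0 h and at 1.56 and 4.02 FPKM in replicates 2 and 3. At 24 h it was at 20.8, 8.61 and 11.1 FPKM and at 144 h at 13.8, 0.889 and 3.95 FPKM. Replicate 1 was the highest at all 14 replicated time points, with a mean of 19.0 FPKM against 5.84 and 6.76. A limma fit with time point and replicate number as terms, a comparison added after seeing the data, gave a log2 difference of replicate 1 from the mean of the others of 1.49 ± 0.16 (SE, adjusted p = 1.34e-07). That fit counts the 14 libraries of each replicate number as independent, although they may share a culture or line. Its SE and p-values therefore do not measure the spread between cultures or lines. The single libraries at 120 and 168 h, titled as replicate 1, had 4.36 and 4.81 FPKM, in the range of replicates 2 and 3.

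In this comparison 4 Hox genes were higher in replicate 1 (9.36% of all genes were), all Hoxa, and 2 lower (4.77%). Hoxa9 was higher by 0.81 ± 0.10 (SE, adjusted p = 1.64e-06) and was highest in replicate 1 at 14 of 14 time points. Hoxa5 was higher by 0.85 (12 of 14) and Hoxa7 by 0.52 (8 of 14). Hoxb4 was lower (difference -0.89 ± 0.15, SE, adjusted p = 0.000112), with the lowest value in replicate 1 at 11 of 14 time points and means of 2.07, 4.29 and 4.65 FPKM. Hoxc9 was the other lower gene (difference -0.53, adjusted p = 0.0227). Between replicates 2 and 3 limma called no Hox gene (1.71% of all genes were higher in replicate 2 and 0.582% lower). At an unadjusted p under 0.05, 0 Hox genes were higher and 3 lower, and all genes were not counted at that cut.

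**Figure D4:**
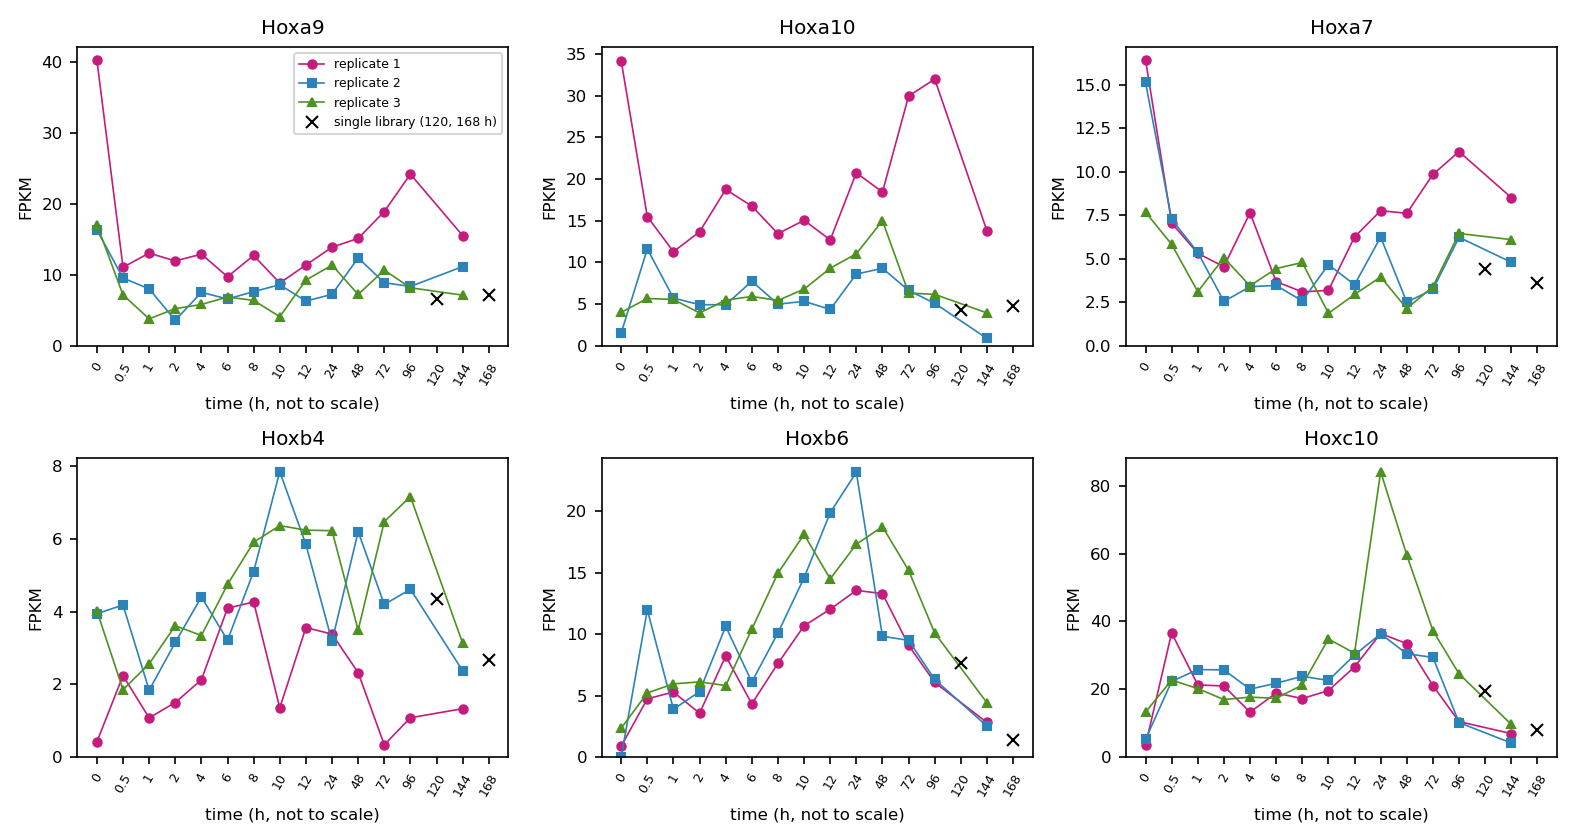
FPKM of Hoxa9, Hoxa10, Hoxa7, Hoxb4, Hoxb6 and Hoxc10 in every library against time in h (not to scale), by replicate number, with the single libraries of 120 and 168 h as crosses. Hoxa10 and Hoxa9 are highest in replicate 1 at 14 of 14 time points, and Hoxb4 is lowest there at 11 of 14, while Hoxb6 and Hoxc10 rise to 24 h in all 3 replicates.

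In replicate 1 the median difference was 0.51 for Hoxa, -0.26 for Hoxb and -0.23 for Hoxc, against 0.02 over all genes. It was 0.26 for the 18 blood-cell genes, of which 6 were higher (9.36% of all genes were), and -0.22 for the 23 stromal genes, of which 4 were lower (4.77%). Of the 6 progenitor genes 3 were higher and 1 lower (median 0.36), with Mycn higher by 1.04 and Cd34 by 0.68. The part of these marker genes in the differences between replicates was not tested. Per 1000 blood-cell FPKM, the Hoxa sum averaged 50.8 ± 9.73 in replicate 1, 32.0 ± 12.4 in replicate 2 and 43.4 ± 33.7 in replicate 3 (SD over 14 time points), and was highest in replicate 1 at 11 of the 14 time points. Meis1, the partner of Hoxa9 on DNA, was lower in replicate 1 (difference -0.63 ± 0.09, SE, adjusted p = 2.63e-05), with the lowest value there at 13 of 14 time points.

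**Figure D5:**
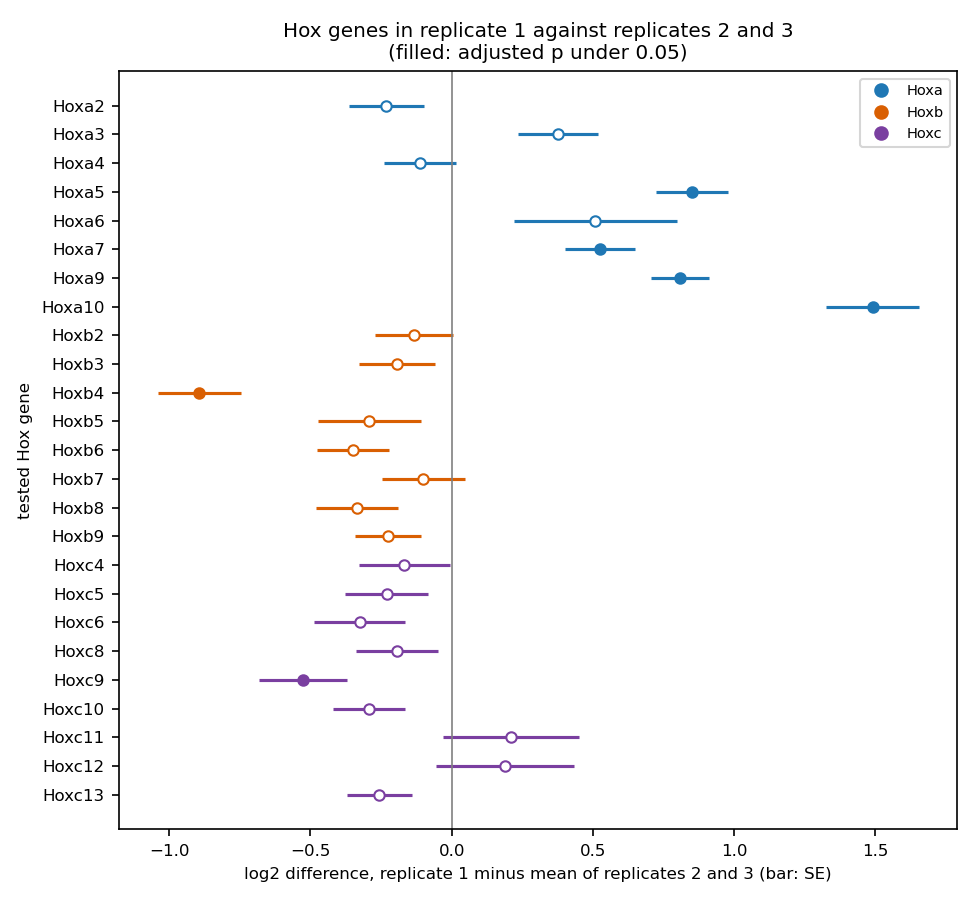
Log2 difference of replicate 1 from the mean of replicates 2 and 3 for the tested Hox genes reported here (rows, coloured by cluster), with SE; filled points had an adjusted p under 0.05. Hoxa5, Hoxa7, Hoxa9 and Hoxa10 lie to the right, up to 1.49, and Hoxb4 and Hoxc9 to the left.

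Leaving out replicate 1 also changed which Hoxa genes moved. Hoxa10 overlapped between 0 and 24 h and was not called with all libraries (log2 change 0.83 ± 0.77, SE, adjusted p = 0.414), and was called higher without replicate 1 (1.59, adjusted p = 0.00725), where it was at 1.56 and 4.02 FPKM at 0 h and 8.61 and 11.1 FPKM at 24 h. It was then also lower at 144 h than at 24 h (-1.82, adjusted p = 0.00427). Hoxa2 and Hoxa4 lost their calls at 6 h (adjusted p = 0.198 and 0.492), and Hoxb3, Hoxc8 and Hoxc10 lost theirs (adjusted p = 0.0625, 0.0784 and 0.0925) with the same direction.

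The counts of the related genes below stand beside these shares of all genes: 19% rose at 6 h while 19.2% fell, 20.8% rose by 24 h while 22.5% fell, by 144 h 5.64% were higher against 3.24% lower, and from 24 to 144 h 17.4% rose while 15.6% fell. Of the TALE cofactors, 8 of 9 passed the filter. At 6 h 2 rose and 3 fell, at 24 h 4 rose and 3 fell, at 144 h 1 rose and 1 fell, and from 24 to 144 h 1 rose and 4 fell. Meis1, a HOX partner, fell from 24.7 ± 12.0 FPKM at 0 h to 10.8 ± 1.75 at 24 h and 8.08 ± 4.59 at 144 h (log2 changes -1.03 and -1.5, adjusted p = 0.023 and 0.00751). Meis2 and Pbx3 rose at 24 h by 1.62 and 1.5 and fell from there to 144 h by 0.86 and 1.55. Pbx4 fell at 6 h by 1.28 and at 24 h by 2.04 and rose from 24 to 144 h by 1.35, Pbx2 fell at 6 h by 1.02, and Meis3 fell from 24 to 144 h by 0.92.

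Of 13 genes that activate Hox genes, 10 passed the filter. Cdx2 and Cdx4, activators of Hox genes in the embryo, were listed at 0 in all libraries, and Cdx1 was above 0 in 1. At 6 h 1 rose and 3 fell, at 24 h 1 rose and 3 fell, at 144 h none was called, and from 24 to 144 h 3 rose. Mll1, which is Kmt2a, was not called at any of these times (mean 11.2 FPKM at 0 h, then 8.72, 9.52 and 11.7 FPKM at the later times). Men1, its menin partner, fell at 6 and 24 h by 0.84 and 0.79 and rose from 24 to 144 h by 1.23, while Dot1l, an H3K79 methyltransferase gene, rose at 6 and 24 h by 0.72 and 0.56. Kdm6b fell at 6 and 24 h by 0.66 and 0.60, Psip1 fell at 6 h by 0.55 and Kdm6a fell at 24 h by 0.74, and Rbbp5 and Wdr5 rose from 24 to 144 h by 0.61 each.

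All 24 Polycomb genes passed the filter. At 6 h 2 rose and 8 fell, at 24 h 4 rose and 7 fell, at 144 h 3 rose, and from 24 to 144 h 10 rose and 3 fell. Ezh2, the H3K27 methyltransferase gene, started at 51.6 ± 5.03 FPKM, was at 26.5 ± 2.92 by 6 h, at 31.8 ± 7.53 by 24 h and reached 81.5 ± 12.6 by 144 h (SD, n = 3). Jarid2, a PRC2 cofactor, fell by 1.27 at 6 h and 1.70 at 24 h and rose by 1.30 from 24 to 144 h. Cbx7 fell at 6 h by 1.37 and at 24 h by 1.07, Cbx2 fell at 6 h by 1.07, and Pcgf2 rose at 24 h by 1.06. From 24 to 144 h Cbx2 and Ezh2 rose by 1.41 and 1.34. At 144 h against 0 h Pcgf5, Cbx2 and Ezh2 were higher by 0.88, 0.85 and 0.64. The 18 blood-cell genes also fell at 6 and 24 h and rose from 24 to 144 h, and their part in these changes was not tested.

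Of the noncoding genes in the clusters, Hoxa11as was listed at 0 in all libraries, and 2700086A05Rik was above 0 in 32 of 44 and was not called in any of these comparisons.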

How the data were processed

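The 44 libraries were poly(A) RNA-seq libraries made, per the labels, with the NEBNext Ultra RNA kit. The authors deposited 1 table of FPKM values, called corrected in its name; what was corrected is not given in the sources used here. For the steps before it, the mm9 build, TopHat2 2.1.0 and Cufflinks 2.1.1 are listed in the submitters' processing notes. Values were used as log2(FPKM + 1), with no added scaling. The 13907 of 23234 genes with 1 FPKM or more in 3 or more of 42 libraries entered a linear model (limma 3.58.1, R 4.3.3) of 1 mean per time point with an eBayes trend, after the script was tested on simulated data. The single libraries at 120 and 168 h were left out of the fit. Errors are SD for FPKM and SE for log2 changes. Hox genes with a mean of at least 1 FPKM at a replicated time point were named, and of each related list up to 4 called members with the largest change per comparison, plus Meis1 and Kmt2a. A few genes that meet this rule are counted but are not reported here by name. The members and lists were chosen with earlier results of these data known. Alternatives were a pseudocount of 0.1, other filters, quantile normalization, scaling to blood-cell genes, a stromal covariate, blocks for replicate number or for runs of library codes, and libraries left out. Leaving out all libraries of replicate 1 and a 2-fold minimum were chosen after seeing the data. Exon overlaps were read from GENCODE on GRCm38, promoters from RefSeq on GRCm38.p6.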

Additional observations from a re-analysis of the deposited data

How the results depend on the processing

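Depth is not recorded in the file, so counting error could not be set apart from other spread. With a pseudocount of 0.1, 2 Hox genes were lower at 6 h, 1 lower at 24 h, and 4 higher and 2 lower at 144 h against 0 h. With no filter, 1 was higher and 0 lower at 144 h. With a filter of at least 1 FPKM in 3 libraries of 1 time point, 0 were higher at 144 h against 24 h, and with quantile normalization 0 were higher at 144 h against 0 h. A 2-fold minimum left 1 lower at 24 h. Without the 14 libraries of replicate 1, 2 were lower at 6 h (1708 of all 13907 genes were) and 1 lower at 24 h (2648). At 144 h 0 were then higher and 2 lower (272 and 260 of all genes). The cause was not tested.

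Scaled to the blood-cell genes, 25 Hox genes were called by the F test. At 6 h 19 were higher and 0 lower (12023 and 70 of all 13907 genes were). At 24 h 25 were higher and 0 lower (12843 and 39 of all genes). At 144 h against 0 h 0 were lower (83 of all genes). At 144 h against 24 h 0 were higher and 24 lower (118 and 12110 of all genes). All genes moved with this scaling, by a median of 1.57 at 6 h, 2.14 at 24 h and -1.57 at 144 h against 24 h. The log2 changes that turned were at 6 h those of Hoxa2 (0.59), Hoxa4 (0.79), Hoxa7 (0.15) and Hoxa9 (0.18). At 24 h they were those of Hoxa2 (1.21), Hoxa3 (1.91), Hoxa4 (1.01), Hoxa5 (1.40), Hoxa7 (1.21) and Hoxa9 (1.17). At 144 h against 24 h they were those of Hoxa2 (-1.51), Hoxa4 (-0.58), Hoxa7 (-1.55) and Hoxa9 (-1.62).

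With the stromal mean as a covariate, 8 Hox genes were called by the F test and 0 were higher or lower at 6 h, 24 h or 144 h against 0 h or at 144 h against 24 h. Over all 13907 genes, 33 were then higher and 15 lower at 6 h, and 23 higher and 9 lower at 24 h. All stromal sums at 6 and 24 h lay above those at 0 h, so this fit has little power to tell time from the covariate. The log2 changes that turned at 6 h were those of Hoxa7 (0.11), Hoxa9 (0.042), Hoxb3 (-0.56), Hoxc10 (-1.26), Hoxc13 (-0.31), Hoxc6 (-1.87), Hoxc8 (-0.94) and Hoxc9 (-2.00). At 24 h they were those of Hoxa7 (0.50), Hoxb5 (-0.68), Hoxc6 (-0.25) and Hoxc9 (-0.51), and at 144 h against 24 h that of Hoxb3 (0.064).

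With the replicate block, 5 Hox genes were lower at 24 h and 3 lower at 144 h against 0 h, and 19 were called by the F test. With this block Hoxa9 was called lower at 24 h (adjusted p = 0.00137, against 0.057 without it), Hoxa3 at 6 h (0.0439 against 0.0684), Hoxa5 at 6 and 24 h (0.00855 and 0.0416), and Hoxa10 at 144 h against 24 h (0.00797 against 0.169). The labels do not say what a replicate number stands for, and the numbers were not taken to pair the libraries in the main fit. Of 273 pairs of libraries with the same number, 93 had a correlation of their deviations over 0.1 (range -0.17 to 0.411). Still, 36 of 42 libraries correlated best on average with their own number. Without the block, differences between replicate numbers are part of the spread. With runs of library codes as a block, 5 were lower at 24 h and 3 lower at 144 h.

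Leaving out 1 library at a time gave 14 to 17 Hox genes by the F test, 11 to 12 higher and 1 to 6 lower at 6 h, 12 to 14 higher and 1 to 4 lower at 24 h, 0 to 4 higher and 0 to 2 lower at 144 h, and 0 to 1 higher and 9 to 13 lower at 144 h against 24 h. The count lower at 6 h was 1 without 0 h replicate 1 and 6 without 0 h replicate 3, and the count lower at 24 h was 1 without 0 h replicate 1. The count higher at 144 h was 0 without 0 h replicate 1 or 144 h replicate 3, and 4 without 0 h replicate 3. The count lower at 144 h was 0 without 0 h replicate 1, 144 h replicate 2 or 144 h replicate 3.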
